A study of Mus musculus with 30 samples.

Results

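Cxcl12, Cxcr4, Adipoq, Lepr and Kitl are 5 genes tied to the bone marrow niche and to the retention of blood cells in it. They were taken by symbol from the probe annotation of a mouse 3′ expression array, each by its brightest probe set on average across the 30 arrays, and they are 5 of the 18194 genes measured. Every gene was followed through all 10 groups of the study, each of 3 arrays of CD11b+ cells. CD11b is an integrin subunit carried by granulocytes, monocytes and macrophages.

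The marrow-derived groups were BALB/c bone marrow cultured for 4 days with GM-CSF and IL-6, BALB/c bone marrow cultured for 4 days with GM-CSF and G-CSF, and fresh BALB/c bone marrow. The tumor-derived groups were the infiltrates of EL-4 and MCA203 tumors from C57BL/6 mice, the infiltrates of 4T1 and C26-GM tumors from BALB/c mice, and the spleen of BALB/c mice bearing C26-GM, a tumor that the labels name by GM-CSF. C26-GM derives from a colon carcinoma and 4T1 from a mammary carcinoma, EL-4 is a T cell lymphoma and MCA203 a fibrosarcoma. Spleens of healthy C57BL/6 and healthy BALB/c mice completed the set. The study took healthy spleen as the baseline for tumor-induced cells and fresh marrow as the baseline for the cultures. No tumor infiltrate has a baseline other than spleen, so for these groups organ and tumor cannot be told apart. Enrichment by CD11b does not give pure cells, and any cell that comes along adds its RNA. The labels used here give no age or sex and do not say whether the 3 arrays of a group came from separate animals, so p-values measure only the spread between these samples, and 3 arrays a group limit the precision.

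Blood-forming cells are held in the marrow by stromal cells. Reticular stromal cells that carry the leptin receptor, encoded by Lepr, are in the mouse the main source of the chemokine CXCL12, encoded by Cxcl12, and of stem cell factor, encoded by Kitl. CXCL12 binds the receptor CXCR4, encoded by Cxcr4, on neutrophils and progenitors, and this binding holds them in the marrow; stem cell factor binds the receptor KIT on progenitors and mast cells. Adiponectin, encoded by Adipoq, is a hormone of fat cells, and in mouse marrow its transcript is also found in the leptin receptor stromal cells. Cxcr4 is therefore the member that myeloid cells themselves are known to use, and the other 4 are known chiefly from stroma.

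The promoters of Cxcl12, Cxcr4 and Adipoq are shown because these genes rose together in fresh marrow. Each window runs from 250 bases before to 50 bases after the start of the gene, is taken from RefSeq on GRCm38.p6 and is written 5′ to 3′ on the gene's strand. Capitals mark matches, on either strand, to the GC box GGGCGG, the CCAAT box and the TATA box TATAAA. The Cxcl12 window is chr6:117168285-117168584 on the plus strand, the Cxcr4 window is chr1:128592250-128592549 on the minus strand and the Adipoq window is chr16:23146286-23146585 on the plus strand.
Cxcl12: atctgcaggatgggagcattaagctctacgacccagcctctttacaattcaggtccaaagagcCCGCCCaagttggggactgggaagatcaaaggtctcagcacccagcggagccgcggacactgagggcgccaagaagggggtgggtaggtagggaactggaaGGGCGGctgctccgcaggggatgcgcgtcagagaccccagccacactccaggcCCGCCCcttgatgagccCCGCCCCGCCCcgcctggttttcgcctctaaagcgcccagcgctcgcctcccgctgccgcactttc
Cxcr4: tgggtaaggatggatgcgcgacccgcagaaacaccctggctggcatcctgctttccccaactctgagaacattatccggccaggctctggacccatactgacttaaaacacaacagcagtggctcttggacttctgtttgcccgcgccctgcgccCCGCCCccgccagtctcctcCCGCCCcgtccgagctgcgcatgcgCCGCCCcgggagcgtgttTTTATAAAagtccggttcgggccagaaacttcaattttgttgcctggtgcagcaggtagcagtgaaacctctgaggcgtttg
Adipoq: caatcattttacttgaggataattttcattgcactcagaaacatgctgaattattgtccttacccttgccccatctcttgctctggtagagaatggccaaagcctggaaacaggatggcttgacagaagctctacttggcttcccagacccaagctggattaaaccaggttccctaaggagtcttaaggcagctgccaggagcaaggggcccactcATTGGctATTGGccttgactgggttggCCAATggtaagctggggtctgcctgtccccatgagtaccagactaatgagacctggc

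The Cxcl12 window held 20 CpG dinucleotides and 5 GC box matches, and the Cxcr4 window held 20 CpG and 3 GC box matches with the letters of a TATA box on each strand at positions -32 and -30, which overlap. The Adipoq window differed from both, with 0 CpG, 0 GC box matches and 3 CCAAT matches. Of 32851 promoter windows of the same length, 5.43% held no CpG and 26.5% held 20 or more, 35.7% held a GC box, 37.4% a CCAAT match and 13.6% a TATA box. The Kitl window had 28 CpG, 3 GC box matches and 1 TATA box match. The 2 Lepr windows had 18 and 13 CpG, and 1 of them held the C/EBP motif TTGCNNAA, found in 10.8% of all windows. The EBF motif CCCNNGGG, found in 13.7% of all windows, and the hypoxia motif ACGTG, found in 19.6%, had no match in the windows of any of the 5 genes. A match describes the letters of the window and says nothing about binding.

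All levels below are log2 values after RMA, which corrects background, normalizes between arrays and summarises the probes of a set, so a difference of 1 is a 2-fold change. A gene was called where the adjusted p over all 18194 genes was under 0.05 and the change was at least 1 on the log2 scale, from limma's moderated test with Benjamini-Hochberg adjustment. Each level belongs to its own probe set, and levels of different genes are not compared. Arrays of a group correlated with each other at 0.941 to 0.995. Of the 6 culture arrays, 4 had a narrower spread of values, with SDs of 1.96 to 1.98, than all other arrays, which had 2.06 to 2.28; these were GM-CSF + IL-6 replicates 1 and 2 and GM-CSF + G-CSF replicates 1 and 3. The 6 C26-GM arrays had Xist at 5.15 to 6.47 and the Y-linked Eif2s3y at 8.11 to 8.95, against 10.06 to 11.12 and 2.16 to 2.70 on the other 24 arrays, so between C26-GM groups and any other group tumor and sex cannot be told apart. The source text of the C57BL/6 spleen arrays names BALB/c mice, while their titles and strain field say C57BL/6. H2-Ea, a class II gene that C57BL/6 mice do not express, lay at 6.60 to 6.93 on these arrays, against 12.81 to 13.05 on the BALB/c spleen arrays. Myeloid identity markers averaged 10.79 to 12.01 on every array.

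**Figure D1:**
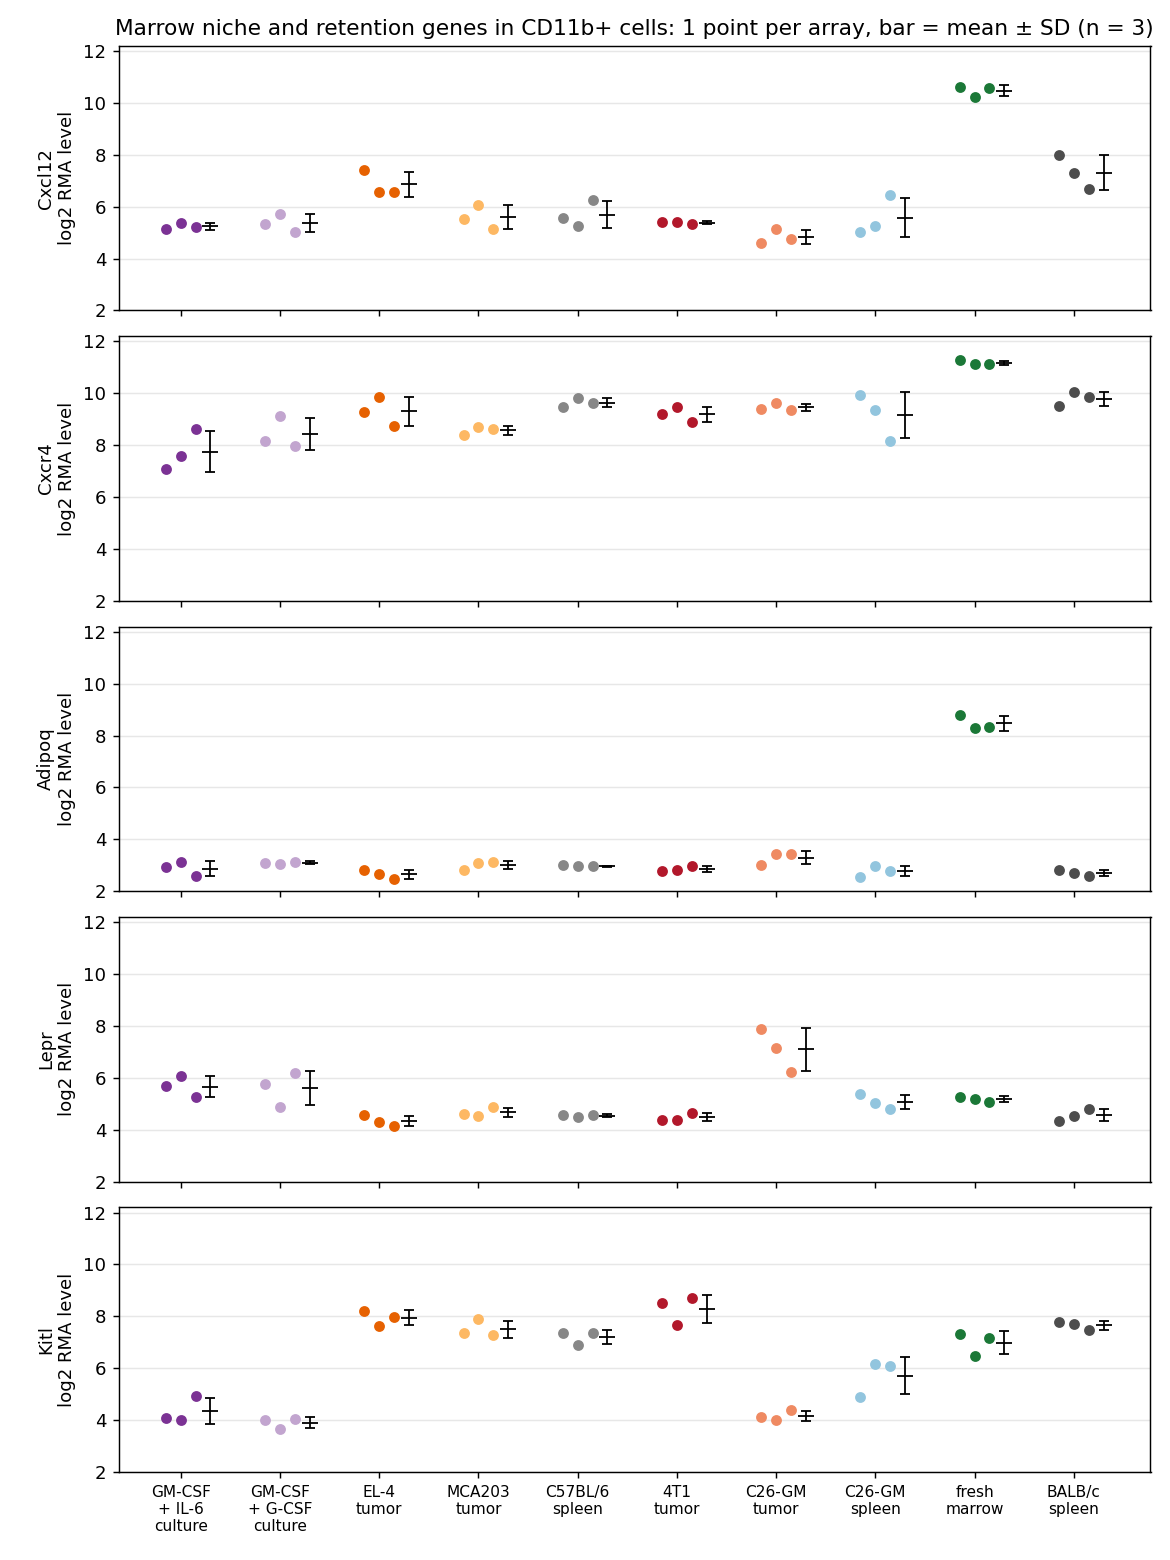
Levels of the 5 genes on the log2 RMA scale, 1 panel per gene, with 1 point per array and a dash at the mean of the 3 arrays of each of the 10 groups. Cxcl12, Cxcr4 and Adipoq stand highest in fresh marrow on all 3 arrays, Lepr stands highest in the C26-GM tumor infiltrate, and Kitl is low in the cultures and in both C26-GM groups.

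Fresh marrow CD11b+ cells carried more Cxcl12, Cxcr4 and Adipoq transcript than CD11b+ cells of healthy BALB/c spleen. Of the 5 genes, 3 were called higher and 0 lower, while 5.76% of all genes were called higher and 7.49% lower. The median change of the 5 genes was 1.37, against 0.09 over all genes. In bulk samples fewer cells of a type and less RNA per cell cannot be told apart, here and in all comparisons that follow.

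Cxcl12, the retention chemokine, read 10.61, 10.22 and 10.60 on the fresh marrow arrays, against 8.0, 7.29 and 6.67 on the BALB/c spleen arrays. The groups did not overlap, and the difference was 3.16 ± 0.33 (SE, n = 3 each), an 8.93-fold higher level with an adjusted p of 2.43e-08 in limma. Here and below, the SE of a change comes from 1 limma fit over all 10 groups. That fit has 1 estimate of spread per gene, so the SE does not show the spread of the compared groups alone. Its receptor Cxcr4 read 11.27, 11.12 and 11.13 in fresh marrow, against 9.51, 10.03 and 9.86 in BALB/c spleen. Every marrow array was again above every spleen array, by a smaller step of 1.37 ± 0.36 (adjusted p = 0.00418 in limma). Adipoq read 8.79, 8.30 and 8.31 in fresh marrow, and in BALB/c spleen it averaged 2.70 ± 0.13 (SD, n = 3). The difference was 5.77 ± 0.16 on the log2 scale (adjusted p = 3.16e-19 in limma). Without detection calls the spleen level has no stated distance from background, so no fold is given.

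These 3 genes set fresh marrow apart from the whole series and not from spleen alone. The lowest marrow array lay above the highest of the other 27 arrays by 4.86 for Adipoq, rank 1 of 18194 genes by this gap. It was 2.22 for Cxcl12, rank 2, and 1.08 for Cxcr4, rank 54; 892 genes had any gap of this direction and 65 had one above 1. Adipoq lay between 2.49 and 3.45 on all 27 arrays outside marrow, a range near the bottom of the scale in which neighbouring groups overlapped, so the size and rank of its gap depend on where that floor lies. These ranks describe genes that were picked with earlier results of these data known.

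Below marrow, Cxcl12 had an order of its own. Healthy BALB/c spleen came next at 7.32 ± 0.67 (SD, n = 3), then EL-4 infiltrate at 6.86 ± 0.50, whose arrays overlapped those of BALB/c spleen. C57BL/6 spleen, MCA203 infiltrate, C26-GM spleen, 4T1 infiltrate, both cultures and C26-GM infiltrate followed with means of 5.69 down to 4.84, and neighbours in that run overlapped. C57BL/6 spleen differed from BALB/c spleen by -1.62 ± 0.33 (adjusted p = 0.00416 in limma), 1 of 5 genes lower where 0.742% of all genes were and 0 higher where 0.654% were; without the first BALB/c array or the second C57BL/6 array the change of Cxcl12 was -1.28 and -1.40 and was not called, and on the probe set 1417574_at it was not called. Cxcr4 showed no break between neighbouring groups other than that below marrow, its means running from 9.80 in BALB/c spleen to 7.75 in the GM-CSF + IL-6 culture.

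Lepr on its brightest probe set, 1425875_a_at, read 5.28, 5.19 and 5.05 in fresh marrow, against 4.34, 4.53 and 4.79 in BALB/c spleen. The arrays did not overlap, but the difference of 0.62 ± 0.29 did not pass (adjusted p = 0.124 in limma). Of the other 3 probe sets of Lepr, 2 gave a larger difference. Probe set 1456156_at read 6.32, 5.58 and 5.89 in fresh marrow, against 2.63, 2.65 and 2.79 in BALB/c spleen. That is a change of 3.24 ± 0.30 (adjusted p = 3.32e-09, limma over 34958 probe sets). Probe set 1425644_at read 5.27, 4.98 and 5.26 in fresh marrow, against 2.78, 2.50 and 2.29 in BALB/c spleen, a change of 2.65 ± 0.46 (adjusted p = 5.71e-05). The last, 1425873_a_at, gave 0.16 ± 0.24 (adjusted p = 0.698), had group means of 3.44 to 4.26 and was not called in any comparison. Lepr makes several splice forms, and which form each probe set reads was not analysed here.

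Kitl, the stem cell factor gene, was not higher in fresh marrow. It read 7.31, 6.47 and 7.15 there, against 7.79, 7.71 and 7.47 in BALB/c spleen. Its marrow arrays lay below the spleen arrays, and the difference of -0.68 ± 0.30 did not pass (adjusted p = 0.0994 in limma).

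**Figure D2:**
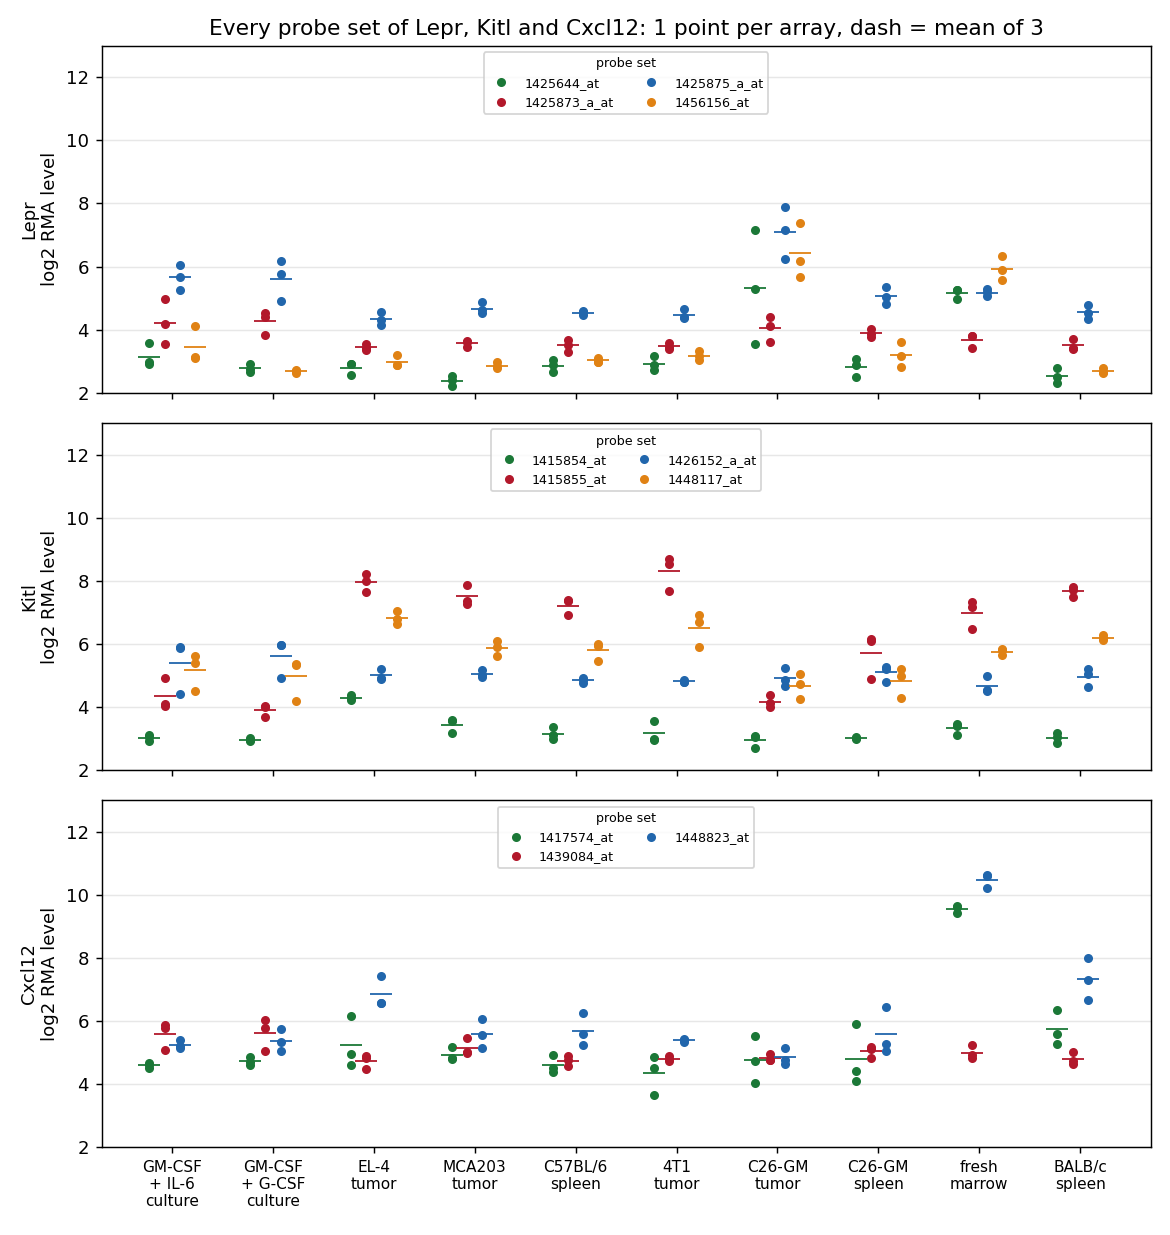
Every probe set of Lepr, Kitl and Cxcl12 that carries 1 gene symbol, as log2 RMA level by group, with 1 point per array and a dash at the mean of 3. Lepr 1456156_at and 1425644_at are high in fresh marrow and in C26-GM infiltrate, while 1425875_a_at is highest in C26-GM infiltrate; Cxcl12 1417574_at follows 1448823_at in fresh marrow, and 1439084_at stays between 4.72 and 5.61 in all group means.

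The stromal setting of these genes was read from other transcripts. Of 11 further genes of marrow reticular stroma, 2 rose in fresh marrow over BALB/c spleen and 0 fell: Cdh11, a mesenchymal cadherin, by 2.81 ± 0.24 (adjusted p = 6.13e-10) and Ebf3, a transcription factor of these stromal cells, by 1.09 ± 0.15 (adjusted p = 2.15e-06, both limma). Their mean level was 4.67 to 4.80 on the marrow arrays, against 3.90 to 4.07 in BALB/c spleen, and their median change was 0.61, against 0.09 over all genes. Fibroblast markers gave 6 rises and 0 falls among 10, led by the collagen gene Col1a2 at 4.14 ± 0.42 (adjusted p = 1.22e-08). Their mean level was 5.98 to 6.93 in fresh marrow, against 4.78 to 5.13 in BALB/c spleen. Of 11 fat cell markers measured, 0 rose, 9 were not called and 2 fell, Pparg by -2.28 ± 0.38 and Lpl by -1.34 ± 0.22; their mean level was 6.06 to 6.08 in fresh marrow, against 6.28 to 6.35 in BALB/c spleen. Endothelial markers gave 2 rises among 9 and osteoblast markers 1 among 5. The part of such cells in the Cxcl12, Adipoq and Lepr values was not tested.

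**Figure D3:**
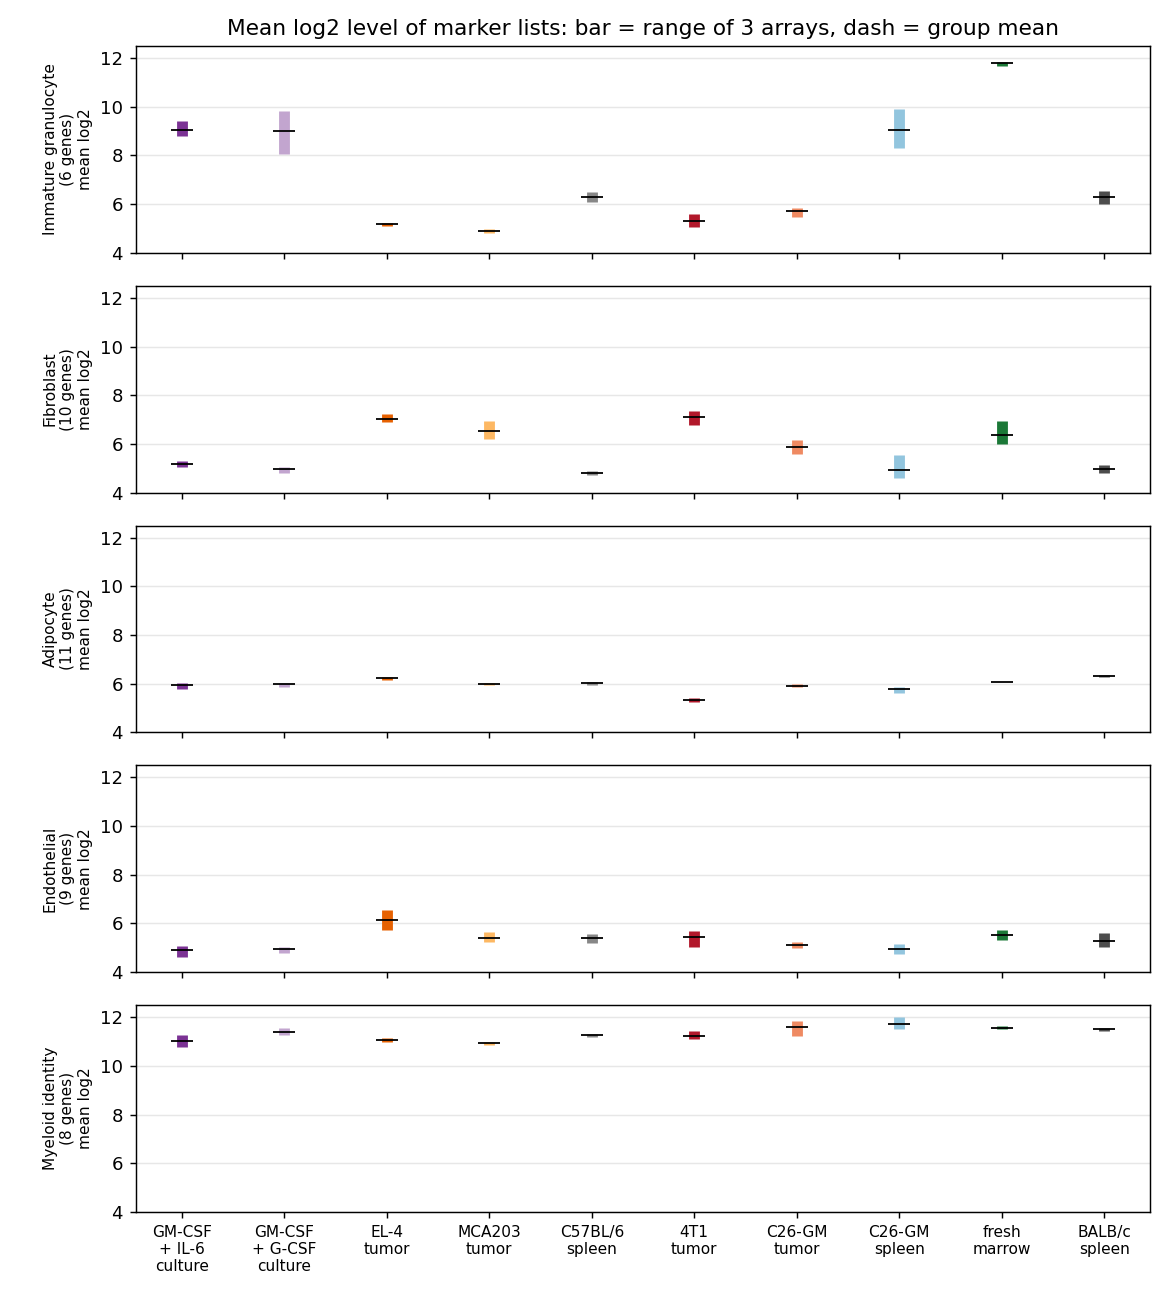
Mean log2 RMA level of 5 marker lists by group (immature granulocyte 6 genes, fibroblast 10, adipocyte 11, endothelial 9, myeloid identity 8); the bar spans the 3 arrays and the dash is their mean. Fresh marrow lies at 11.69 to 11.85 for immature granulocyte markers, above all other groups, and at 5.98 to 6.93 for fibroblast markers, where 4T1 and EL-4 infiltrates reach 6.80 to 7.34.

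Granulocyte maturity also separated marrow from spleen. All 6 immature granulocyte markers measured rose in fresh marrow, with a mean level of 11.69 to 11.85 there, against 5.99 to 6.53 in BALB/c spleen. Within the CXCL12 and CXCR4 axis, 5 of 11 further genes rose and 5 fell. The rises were led by Ctsg at 6.31 ± 0.37 (adjusted p = 8.17e-13) and Elane at 5.72 ± 0.39 (adjusted p = 1.08e-11, both limma). These encode cathepsin G and neutrophil elastase, granule proteases that can cleave CXCL12 and belong to the immature granulocyte program. The falls were led by Dpp4 at -4.37 ± 0.28 (adjusted p = 3.78e-12), the peptidase that trims and inactivates CXCL12, and Rgs1 at -3.14 ± 0.27 (adjusted p = 5.32e-10), which dampens chemokine receptor signals. B cell markers, of which 5 of 6 fell in fresh marrow, moved with these falls, and their part was not tested.

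Of 8 adhesion genes that hold cells to marrow stroma, 4 were lower in fresh marrow than in BALB/c spleen, 4 were not called and 0 were higher. Itga4, the alpha chain of the integrin VLA-4, changed by -2.48 ± 0.22 (adjusted p = 1.57e-09) and its ligand Vcam1, which splenic macrophages also make, by -1.85 ± 0.34 (adjusted p = 0.000107). In the leptin axis 1 of 7 further genes rose, the adaptor Sh2b1 at 1.29 ± 0.15, and 3 fell, among them Socs3, the feedback inhibitor of this receptor, at -2.04 ± 0.33, and Leprot, a gene that shares its first exons with Lepr, at -1.54 ± 0.19. In the stem cell factor axis Flt3, a cytokine receptor of progenitors and dendritic cells, fell by 1.80 ± 0.26 and no other of the 6 further genes was called. None of the 4 further adiponectin axis genes was called; Adipor1 and Adipor2, the hormone's receptors, are among them.

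After 4 days of culture, 4 of the 5 genes were lower than in fresh marrow. The same 4 genes, Cxcl12, Cxcr4, Adipoq and Kitl, fell in the GM-CSF + IL-6 culture, where 9.07% of all genes fell, and in the GM-CSF + G-CSF culture, where 9.37% did. No member rose, against 5.00% and 4.48% of all genes. Both comparisons share the fresh marrow arrays. The median change of the 5 genes was -3.42 in the IL-6 culture and -3.08 in the G-CSF culture, against 0.12 and 0.14 over all genes.

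Cxcl12 read 5.14, 5.39 and 5.22 in the GM-CSF + IL-6 culture and 5.32, 5.73 and 5.04 in the GM-CSF + G-CSF culture, against 10.61, 10.22 and 10.60 in fresh marrow. The changes were -5.23 ± 0.33 with IL-6, 37.5-fold (adjusted p = 4.34e-12), and -5.11 ± 0.33 with G-CSF, 34.6-fold (adjusted p = 6.55e-12, both limma). The arrays of each culture overlapped those of C57BL/6 spleen, of C26-GM spleen and of the 4T1, MCA203 and C26-GM infiltrates. Adipoq averaged 2.87 and 3.09 in the IL-6 and G-CSF cultures, against 8.47 ± 0.28 (SD, n = 3) in fresh marrow. It changed by -5.59 ± 0.16 and -5.38 ± 0.16 (adjusted p = 2.29e-19 and 6.23e-19, both limma). The arrays of the IL-6 culture then overlapped those of every other group outside marrow. Those of the G-CSF culture overlapped only the IL-6 culture and the C26-GM and MCA203 infiltrates.

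Cxcr4 read 7.07, 7.58 and 8.61 in the GM-CSF + IL-6 culture and 8.16, 9.13 and 7.98 in the GM-CSF + G-CSF culture, against 11.27, 11.12 and 11.13 in fresh marrow. In each culture the single array of ordinary spread was the highest, and no culture array reached a marrow array. The changes were -3.42 ± 0.36 with IL-6 (10.7-fold, adjusted p = 3.75e-08) and -2.75 ± 0.36 with G-CSF (6.73-fold, adjusted p = 1.18e-06, both limma). With the 4 narrow arrays left out, a setting chosen after seeing the data, they were -2.56 (adjusted p = 6.71e-05) and -2.05 (adjusted p = 0.000813), with 1 array left in each culture, assumed to vary like the other groups. All culture arrays of Cxcr4 also lay below the lowest healthy BALB/c spleen array, at 9.51, as did those of Cxcl12, whose lowest spleen array was 6.67; the cultures were not tested against spleen.

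Kitl read 4.09, 4.02 and 4.92 in the GM-CSF + IL-6 culture and 4.01, 3.66 and 4.03 in the GM-CSF + G-CSF culture, against 7.31, 6.47 and 7.15 in fresh marrow. All culture arrays lay below all marrow arrays. The changes of -2.64 ± 0.30 (adjusted p = 1.62e-07) and -3.08 ± 0.30 (adjusted p = 1.26e-08, both limma) rest on probe set 1415855_at, since none of the other 3 Kitl probe sets was called in either culture.

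Lepr on 1425875_a_at read 5.68, 6.05 and 5.24 in the GM-CSF + IL-6 culture and 5.76, 4.89 and 6.17 in the GM-CSF + G-CSF culture, against 5.28, 5.19 and 5.05 in fresh marrow, with overlapping arrays and no call. The higher readings were those of the narrow arrays. Probe set 1456156_at read 3.13, 3.08 and 4.12 with IL-6 and 2.73, 2.69 and 2.61 with G-CSF, against 6.32, 5.58 and 5.89 in fresh marrow, changes of -2.49 (adjusted p = 4.06e-07) and -3.25 (adjusted p = 5.5e-09) in limma over all probe sets. Probe set 1425644_at changed by -2.03 and -2.40 (adjusted p = 0.0012 and 0.00021). The direction for Lepr in culture thus depends on the probe set read.

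Of 10 fibroblast markers, 5 fell with IL-6 and 6 with G-CSF, and 1 rose in each; their mean level was 5.06 to 5.31 and 4.82 to 5.04, against 5.98 to 6.93 in fresh marrow. Cdh11 changed by -2.39 ± 0.24 and -2.76 ± 0.24. All 6 immature granulocyte markers fell in each culture. The part of either in the falls of Cxcl12, Adipoq and Kitl was not tested.

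Several retention partners of these genes changed in each culture. Vcam1 changed by -6.56 ± 0.34 with IL-6 and by -7.03 ± 0.34 with G-CSF (adjusted p = 7.9e-14 and 1.89e-14), and Itga4 by -2.01 ± 0.22 and -1.75 ± 0.22, which made 0 rises and 4 falls among 8 adhesion genes in each culture. In the CXCL12 and CXCR4 axis 3 of 11 further genes rose and 6 fell with IL-6, and 2 rose and 5 fell with G-CSF. The largest were Elane at -3.37 ± 0.39 and -3.66 ± 0.39, Ctsg at -3.32 ± 0.37 and -3.19 ± 0.37, Cd74 at 3.07 ± 0.15 and 2.27 ± 0.15, and Mif at 2.63 ± 0.15 and 2.58 ± 0.15. MIF is a cytokine that also binds CXCR4, and CD74 is its receptor and the class II invariant chain. Kit, the receptor of stem cell factor, changed by -1.65 ± 0.33 and -2.01 ± 0.33, while the progenitor antigen gene Cd34 rose by 3.72 ± 0.29 and 2.28 ± 0.29. In the release axis 1 of 5 genes rose and 2 fell in each culture. The rise was Cxcl2, a ligand of CXCR2, at 1.34 ± 0.37 and 1.08 ± 0.37. Cxcr2, the receptor that draws neutrophils out of marrow, fell by 2.20 ± 0.36 in each, and the G-CSF receptor gene Csf3r changed by -2.55 ± 0.24 and -1.52 ± 0.24.

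None of the 5 genes was called between the GM-CSF + IL-6 and the GM-CSF + G-CSF culture, where 0.456% of all genes were higher and 0.198% lower with IL-6; at an unadjusted p under 0.05 there was also none. The 95% intervals of the difference, IL-6 less G-CSF, were -0.80 to 0.57 for Cxcl12, -1.41 to 0.073 for Cxcr4, -0.55 to 0.12 for Adipoq, -0.55 to 0.66 for Lepr and -0.18 to 1.07 for Kitl. Among their partners Dpp4 was higher with IL-6 by 1.84 ± 0.28 (adjusted p = 0.000407), Cd34 by 1.44 ± 0.29 (adjusted p = 0.00724), and Csf3r differed by -1.03 ± 0.24 (adjusted p = 0.0254, all limma).

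**Figure D4:**
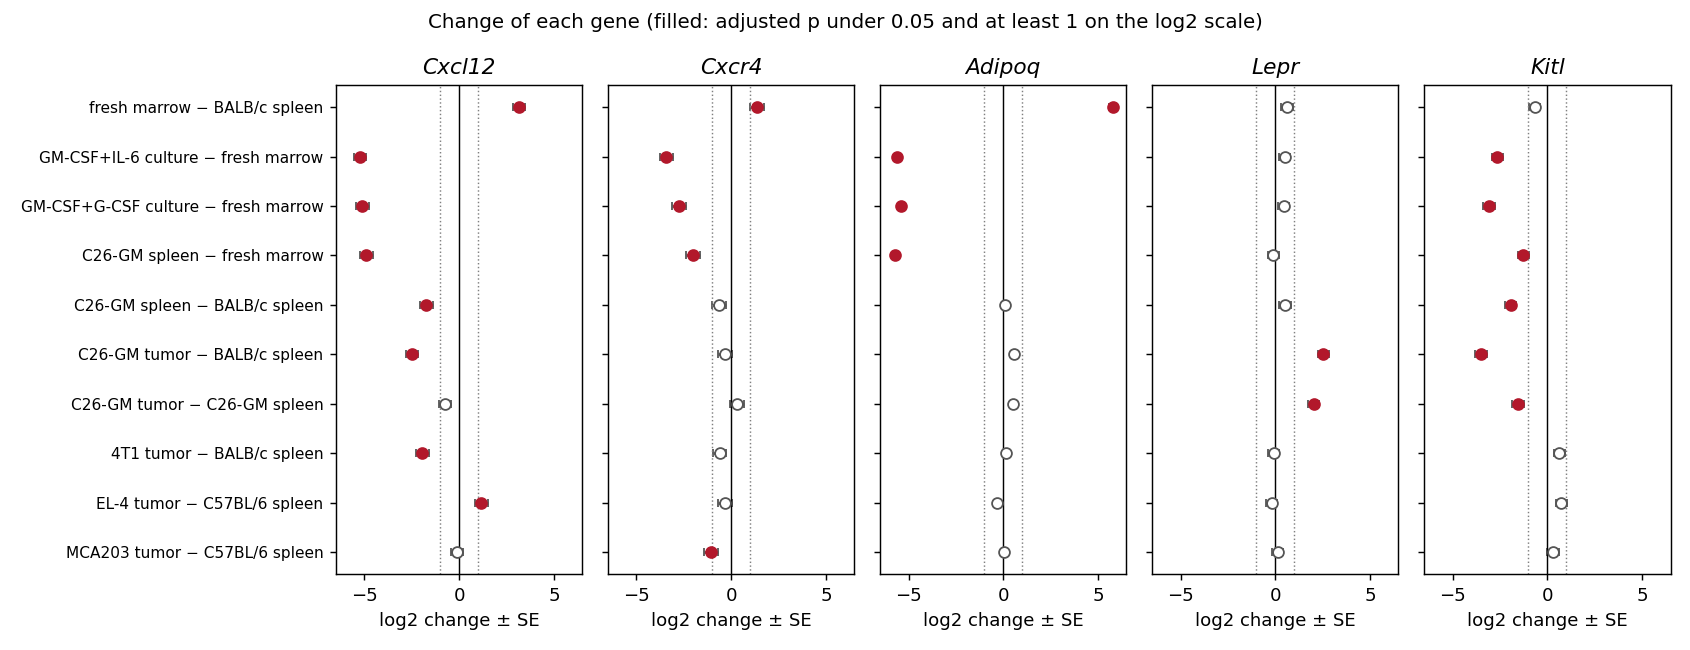
Log2 change ± SE of the 5 genes in each comparison shown, filled where called by limma. The comparisons between the cultures, between infiltrates and between healthy spleens, and the strain contrast, are not shown. Fresh marrow over BALB/c spleen and the cultures over fresh marrow run in opposite directions for Cxcl12, Cxcr4 and Adipoq, and Lepr is called in the comparisons with the C26-GM infiltrate. The marrow comparisons use the same fresh marrow arrays. A gene highest in fresh marrow must therefore rise over spleen and fall in the cultures.

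Spleens of C26-GM tumor-bearing mice held cells with less Cxcl12 and Kitl than healthy BALB/c spleens, 2 of 5 genes lower where 3.83% of all genes were, and no member higher where 2.32% were. Kitl read 4.89, 6.15 and 6.10 in C26-GM spleen, against 7.79, 7.71 and 7.47 in healthy spleen. No array overlapped, and the change was -1.95 ± 0.30 (adjusted p = 3.7e-05). Kitl probe set 1448117_at was also called lower, at -1.37 (adjusted p = 0.0027 over probe sets). Kitl probe sets 1415854_at and 1426152_a_at gave -0.02 and 0.14 and were not called. Cxcl12 read 5.03, 5.28 and 6.44 in C26-GM spleen, against 8.0, 7.29 and 6.67 in healthy spleen, a change of -1.74 ± 0.33 (adjusted p = 0.000448, both limma) that probe set 1417574_at did not call. The third C26-GM spleen array, the highest in Cxcl12, had fibroblast markers at 5.54, against 4.61 and 4.64 on the first and second, and the part of these cells was not tested.

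Cxcr4 read 9.94, 9.35 and 8.18 in C26-GM spleen, against 9.51, 10.03 and 9.86 in healthy spleen, a change of -0.64 ± 0.36 that did not pass (adjusted p = 0.28). The arrays overlapped, and the third C26-GM array was the lowest. Around it Ctsg rose by 3.39 ± 0.37 and Elane by 2.53 ± 0.39, while Ackr3, the scavenger receptor of CXCL12, changed by -2.21 ± 0.35 and Rgs1 by -1.78 ± 0.27; in all 2 of 11 further axis genes rose and 3 fell. All 6 immature granulocyte markers rose, with mean levels of 9.89, 8.92 and 8.32 on the 3 C26-GM spleen arrays, against 5.99 to 6.53 in healthy spleen. B cell markers gave 0 rises and 5 falls among 6 and T cell markers 0 rises and 3 falls among 7, beside the falls of Cxcl12, Kitl and Rgs1, and their part was not tested. Kit changed by -1.88 ± 0.33 and Flt3 by -1.75 ± 0.26, 0 rises and 2 falls among 6 stem cell factor axis genes.

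C26-GM spleen cells thus carried more immature granulocyte transcript than healthy spleen cells and no called rise of a niche gene. Against fresh marrow, C26-GM spleen was lower in 4 of 5 genes, where 4.96% of all genes were lower, and higher in 0, where 5.27% were. Cxcl12 changed by -4.90 ± 0.33, Cxcr4 by -2.02 ± 0.36, Adipoq by -5.70 ± 0.16 and Kitl by -1.27 ± 0.30 (adjusted p of 2.08e-11, 0.000104, 1.45e-19 and 0.0024 in limma). The Kitl change was -0.86 and was not called without the first C26-GM spleen array, and none of the other 3 Kitl probe sets was called. Lepr 1425875_a_at differed by -0.11 ± 0.29, and probe set 1456156_at by -2.74 (adjusted p = 1.22e-07 over probe sets). Immature granulocyte markers were lower too, 6 of 6, and fibroblast markers fell in 6 of 10, beside these changes.

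The infiltrate of C26-GM tumors had the highest Lepr of the series. Lepr 1425875_a_at read 7.88, 7.17 and 6.24 there, against 4.34, 4.53 and 4.79 in BALB/c spleen. Its lowest array lay above every array of the other 9 groups. The change was 2.54 ± 0.29, 5.81-fold (adjusted p = 1.36e-07 in limma). The spread within the infiltrate was wide, with an SD of 0.82, and the third array was the lowest. Without the third arrays of both C26-GM groups, which an earlier look at these data had set apart, the Lepr change was 2.97 (adjusted p = 6.69e-09 in limma). The results of the 5 genes in the comparisons that use a C26-GM group all kept their call. Probe set 1456156_at read 7.39, 6.19 and 5.67 in the infiltrate and rose by 3.73 (adjusted p = 2.66e-10), and 1425644_at read 7.17, 5.28 and 3.53 and rose by 2.80 (adjusted p = 3.43e-05), so 3 of 4 probe sets of Lepr were called higher. On 1456156_at the C26-GM infiltrate and fresh marrow, at 6.32, 5.58 and 5.89, overlapped.

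Against the spleen of mice with the same tumor, which is alike in the sex-linked genes, Lepr was higher in the infiltrate by 2.03 ± 0.29 (adjusted p = 1.32e-05 in limma), 1 of 5 genes higher where 2.79% of all genes were. Kitl fell by 1.55 ± 0.30 (adjusted p = 0.000581), 1 of 5 genes lower where 3.36% of all genes were; this call rests on probe set 1415855_at, since the other 3 gave -0.07 to -0.19 (adjusted p of at least 0.802), 1448117_at among them at -0.15. Socs3, a feedback inhibitor that leptin and other cytokines induce, was higher than in BALB/c spleen by 1.79 ± 0.33 (adjusted p = 0.000156) and Ptpn1, a phosphatase of the same pathway, by 1.19. These were 2 rises and 0 falls among 7 further leptin axis genes. Against C26-GM spleen 1 of the 7 rose and 0 fell. Groups without a called Lepr change over healthy spleen also had such rises. In C26-GM spleen and 4T1 infiltrate 1 rose and 0 fell, in MCA203 infiltrate 1 rose and 1 fell, and in EL-4 infiltrate 0 rose and 1 fell. In C26-GM infiltrate 1 of 11 further stromal genes rose over BALB/c spleen, Prrx1 at 1.43 ± 0.25. Fibroblast markers gave 4 rises and 0 falls among 10, with a mean level of 5.57 to 6.15, against 4.78 to 5.13 in BALB/c spleen. Their part in the Lepr value was not tested.

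In the same comparison with BALB/c spleen 1 of 5 genes was higher, where 4.26% of all genes were, and 2 were lower, where 7.13% were. Kitl read 4.12, 3.99 and 4.38 in C26-GM infiltrate, against 7.79, 7.71 and 7.47 in BALB/c spleen, without overlap. It fell by 3.50 ± 0.30, or 11.3-fold (adjusted p = 7.99e-10), and changed by -1.52 on probe set 1448117_at (adjusted p = 0.000526). On Kitl probe sets 1415854_at and 1426152_a_at the changes were -0.09 and -0.04 and were not called. Cxcl12 read 4.62, 5.14 and 4.76, against 8.0, 7.29 and 6.67, the lowest group mean of the series for this gene, and changed by -2.48 ± 0.33 (adjusted p = 1.67e-06, limma). On probe set 1417574_at its change was -0.98 and was not called (adjusted p = 0.076, limma over probe sets). Adipoq read 0.59 ± 0.16 higher (adjusted p = 0.007), under the minimum change of 1, at levels near 3. Cxcr4 differed by -0.33 ± 0.36 (adjusted p = 0.525). Vcam1 changed by -7.32 ± 0.34 and Itga4 by -3.01 ± 0.22, 0 rises and 4 falls among 8 adhesion genes.

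The 4T1 infiltrate had lower Cxcl12 than BALB/c spleen and no called change of Kitl, with 0 of 5 genes called higher, where 6.83% of all genes were, and 1 lower, where 5.44% were. Kitl read 8.52, 7.68 and 8.69 in 4T1 infiltrate, against 7.79, 7.71 and 7.47 in BALB/c spleen. The arrays overlapped, and the change of 0.64 ± 0.30 did not pass (adjusted p = 0.14). Cxcl12 read 5.39, 5.43 and 5.33, against 8.0, 7.29 and 6.67 in BALB/c spleen, and changed by -1.94 ± 0.33 (adjusted p = 5.29e-05), and on probe set 1417574_at by -1.40 (adjusted p = 0.0114). Ackr3 rose by 2.94 ± 0.35 and Foxc1, a transcription factor of marrow stroma also found in carcinoma, by 3.04 ± 0.24. Epithelial and carcinoma markers gave 7 rises among 8 and fibroblast markers 7 among 10, with a mean level of 6.80 to 7.34 against 4.78 to 5.13, and their part in the Kitl value was not tested.

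Set directly against each other, the BALB/c tumors differed in Kitl and Lepr. The 4T1 infiltrate was higher than the C26-GM infiltrate in Kitl by 4.13 ± 0.30, 17.6-fold (adjusted p = 6.12e-11), and lower in Lepr, at -2.62 ± 0.29 (adjusted p = 1.09e-07, both limma). These were 1 gene of 5 higher where 8.95% of all genes were, and 1 lower where 3.90% were. Kitl probe set 1448117_at gave 1.83 (adjusted p = 5.42e-05), and Lepr probe sets 1456156_at and 1425644_at gave -3.25 and -2.41. Kitl probe sets 1415854_at and 1426152_a_at gave 0.22 and -0.10 and were not called.

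In C57BL/6 mice, Cxcl12 was higher in EL-4 infiltrate than in spleen and Cxcr4 was lower in MCA203 infiltrate, and both calls were narrow. Cxcl12 read 7.43, 6.57 and 6.57 in EL-4 infiltrate, against 5.58, 5.25 and 6.25 in C57BL/6 spleen, without overlap. The change was 1.16 ± 0.33 (adjusted p = 0.0101 in limma), 1 of 5 genes higher where 6.42% of all genes were and 0 lower where 4.40% were. Without the first EL-4 array it was 0.88 and without the second spleen array 0.94, and it was not called; nor was it on probe set 1417574_at. The first EL-4 array also had the highest endothelial markers, at 6.56 against 5.74 and 6.07 on the others, and the highest epithelial markers, at 9.32 against 6.09 and 6.89, and their part was not tested.

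Cxcr4 read 8.40, 8.70 and 8.61 in MCA203 infiltrate, against 9.49, 9.82 and 9.61 in C57BL/6 spleen, without overlap. The change was -1.07 ± 0.36 (adjusted p = 0.0296 in limma), 1 of 5 genes lower where 5.42% of all genes were and 0 higher where 5.01% were. Leaving out 1 array in turn gave changes of -1.15 to -0.98, and 5 of the 6 removals ended the call. Kitl read 8.21, 7.63 and 7.99 in EL-4 infiltrate and 7.37, 7.88 and 7.26 in MCA203 infiltrate, against 7.37, 6.90 and 7.36 in C57BL/6 spleen. Neither change, 0.73 ± 0.30 and 0.29 ± 0.30, was called; for EL-4, Kitl probe sets 1448117_at and 1415854_at were, at 1.02 (adjusted p = 0.0163) and 1.14 (adjusted p = 5.04e-06). Lepr and Adipoq were not called in either tumor on any probe set. Beside these values, T cell markers gave 6 rises among 7 in EL-4 infiltrate and 5 rises and 1 fall in MCA203 infiltrate, and fibroblast markers 7 and 6 rises among 10; their part was not tested.

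Between these tumors, EL-4 infiltrate had more Cxcl12 than MCA203 infiltrate, whose arrays read 5.54, 6.08 and 5.15. The difference was 1.27 ± 0.33 (adjusted p = 0.0098 in limma), 1 of 5 genes higher where 3.88% of all genes were and 0 lower where 1.40% were. It was 0.98 without the first EL-4 array and 1.05 without the third MCA203 array, and was then not called, nor was it on probe set 1417574_at, at 0.31 (adjusted p = 0.675).

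Some partners of these genes changed in the same direction in all 4 infiltrates. Dpp4 was lower in C26-GM, 4T1, EL-4 and MCA203 infiltrates, at -3.98 ± 0.28, -4.15 ± 0.28, -2.23 ± 0.28 and -3.01 ± 0.28, each against the spleen of its strain. Mif was higher by 1.80 ± 0.15, 2.71 ± 0.15, 2.56 ± 0.15 and 2.36 ± 0.15 in the same order. Cxcl2 was higher by 5.13 ± 0.37, 5.12 ± 0.37, 5.61 ± 0.37 and 4.76 ± 0.37. Cxcr2 itself was lower in 4T1, EL-4 and MCA203 infiltrates, at -2.12 ± 0.36, -4.36 ± 0.36 and -4.0 ± 0.36. Vcam1, Itga4, Kit and Flt3 were lower in all 4; Kit, the receptor of the Kitl product, changed by -1.25 ± 0.33, -2.85 ± 0.33, -1.82 ± 0.33 and -3.46 ± 0.33. The groups of each strain share their spleen arrays. Of 6 B cell markers 5 fell in each infiltrate, and their part was not tested.

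**Figure D5:**
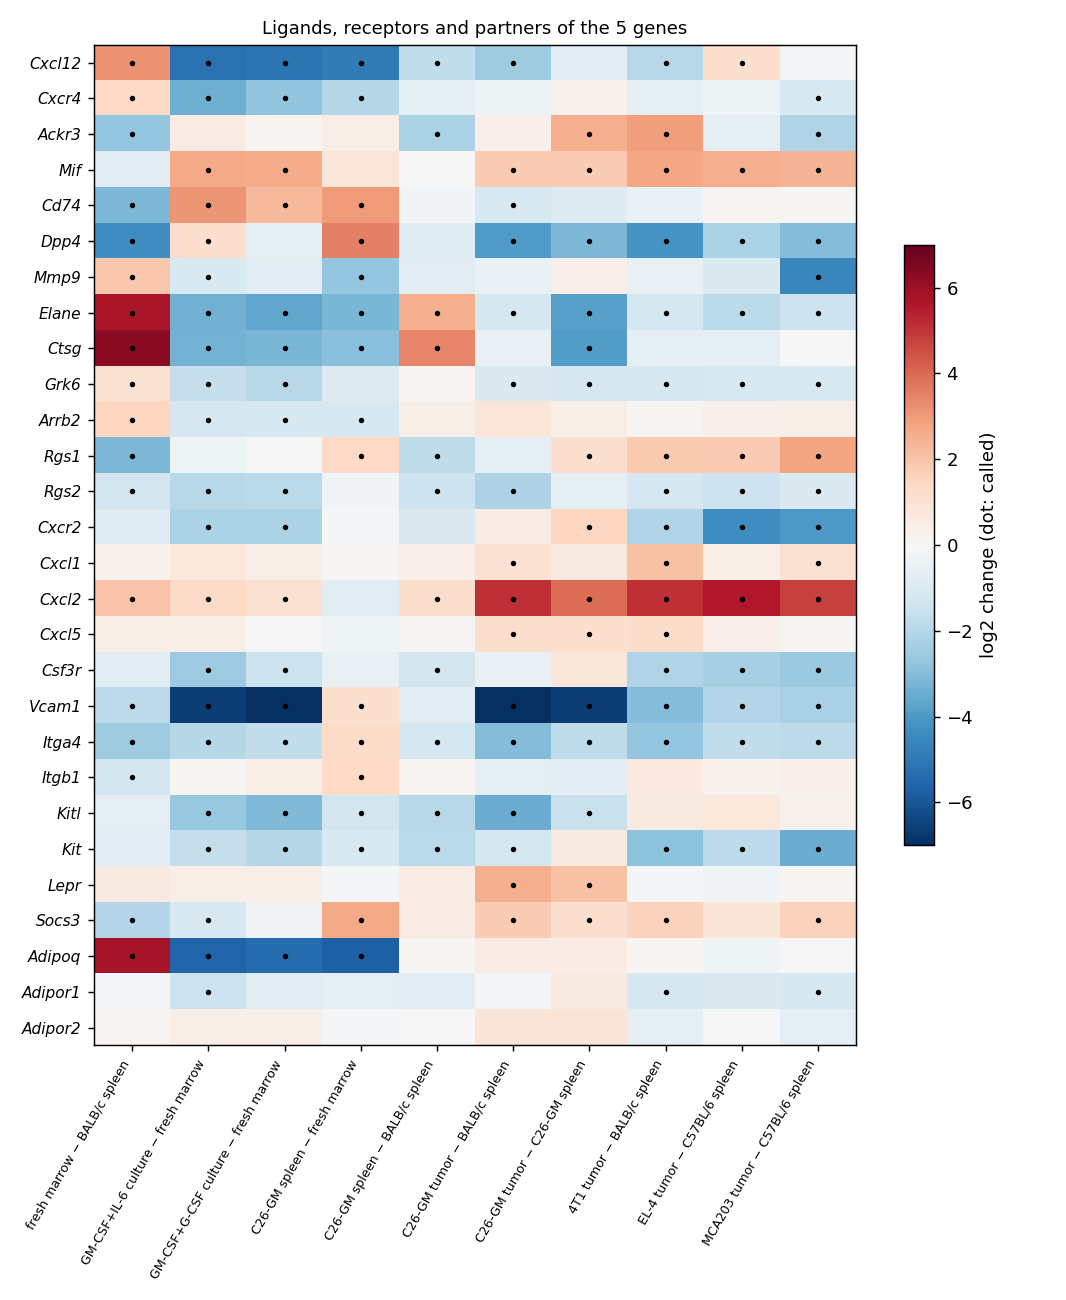
Log2 change of 28 genes, the 5 members and their pathway partners, in 10 comparisons, with a dot where limma called the gene. Dpp4 is lower and Mif and Cxcl2 are higher in all 4 infiltrates, while Kitl is lower in the C26-GM groups and the cultures and Lepr is called in the C26-GM infiltrate.

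The strain contrast asked whether the change of infiltrate over spleen differed between the strains. It took the mean change of the EL-4 and MCA203 infiltrates over C57BL/6 spleen. From this it subtracted the mean change of the C26-GM and 4T1 infiltrates over BALB/c spleen. The contrast thus includes the difference between the healthy spleens, which for Cxcl12 was -1.62 (C57BL/6 less BALB/c). Of the 5 genes, 2 were called higher, where 2.83% of all genes were, and 1 lower, where 2.11% were. Cxcl12 gave 2.74 ± 0.41 (adjusted p = 3.28e-05), with both BALB/c infiltrates below their spleen, EL-4 above and MCA203 at -0.11 from its own. Kitl gave 1.94 ± 0.37 (adjusted p = 0.000768) and Lepr -1.26 ± 0.36 (adjusted p = 0.0261, all limma). None of the other Kitl probe sets was called, 1448117_at among them at 1.14 (adjusted p = 0.077, limma over probe sets). Lepr probe sets 1456156_at and 1425644_at were called, at -2.21 and -1.87 (adjusted p = 0.000179 and 0.0425), and 1425873_a_at was not. For Kitl and Lepr the BALB/c mean joins unlike tumors, C26-GM at -3.50 and 4T1 at 0.64 for Kitl, and 2.54 and -0.08 for Lepr. The Lepr call on its brightest probe set was lost without any of 5 of the spleen arrays. Strain, tumor line and, for C26-GM, sex cannot be told apart here.

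Likeness over the 30 arrays was measured by Pearson's r against 9333 genes that varied by at least 1 between group means. The arrays share group structure, so r describes these arrays only. Genes most like Cxcl12 were Sh2b1, Zfp692 and Pacs1 at 0.876, 0.863 and 0.860, which over the 27 arrays outside marrow had 0.358, 0.191 and 0.400. Adipoq was likest to Zfp692, Btnl9 and Far2 at 0.951, 0.946 and 0.932, which were -0.100, 0.443 and 0.0347 outside marrow. For these genes the likeness was largely that of the marrow arrays. The likeness of the other members was much the same outside marrow. Cxcr4 was likest to Klf2, Smim14 and Csnk1e at 0.927, 0.909 and 0.905, and 0.865, 0.832 and 0.845 outside marrow; KLF2 is a transcription factor of quiescent leukocytes. Lepr was likest to Gal, which encodes the neuropeptide galanin, Stx19 and Trim43a at 0.943, 0.906 and 0.903, and Kitl to Smad3, Nr4a1 and Nrp1 at 0.922, 0.919 and 0.903. Gal, Stx19 and Trim43a had their highest group means in C26-GM infiltrate, as Lepr did, at 6.73, 5.33 and 5.87. Leaving out marrow does not test the part of the C26-GM infiltrate arrays in the likeness of Lepr.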

How the data were processed

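Total RNA of 30 samples was hybridised to 1-colour 3′ expression arrays. The authors deposited a matrix of log2 values for 45101 probe sets, made with RMA per the submitters' processing notes; no source used here gives the RMA version. RMA gives no detection calls, so a low level is not an absence, and the deposited scanner files were not used. Probe sets with 1 symbol numbered 34958, with several 932 and with none 9211; 34754 matched the RefSeq gene table, and 0 symbols were updated. The probe set with the highest mean stood for each of 18194 genes.

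limma 3.58.1 in R 4.3.3 was fitted over all 10 groups with no covariate, with Benjamini-Hochberg adjustment within each of 15 comparisons. The code was tested on simulated data. Figures were drawn with matplotlib 3.10.9. Alternatives were the probe set rule, scaling, filters, weights, variance prior, thresholds and samples. Replicate numbers were not used as pairs in the main fit. Deviations of same-numbered arrays correlated above 0.1 in 10 of 42 pairs, and in 0 of 14 comparisons for all 3. This count cannot exclude pairing within a single comparison. Between C26-GM infiltrate and C26-GM spleen the correlations were 0.367, 0.063 and 0.470, and between the cultures 0.788, -0.850 and -0.801.

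The 5 genes and all lists were chosen with earlier results of these data known. Named beside the 5 genes were at most 4 called genes of each list and comparison with the largest change, and the 3 genes most like each member; other marker genes and the repeats of a gene across comparisons were named after their values were seen. Stromal, fibroblast, fat cell, endothelial, osteoblast, epithelial, T cell, B cell, granulocyte and myeloid lists described other cells.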

Additional observations from a re-analysis of the deposited data

Results flagged for a closer look

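For 3 of the 5 genes the difference between infiltrate and spleen was not the same in all tumors, each by a test of the difference itself in limma. Cxcl12 differed between EL-4 and MCA203 infiltrates by 1.27, and between the C57BL/6 and the BALB/c infiltrate-over-spleen differences by 2.74. Lepr differed between 4T1 and C26-GM infiltrates by -2.62, and between the C57BL/6 and the BALB/c infiltrate-over-spleen differences by -1.26. Kitl differed between 4T1 and C26-GM infiltrates by 4.13, and between the C57BL/6 and the BALB/c infiltrate-over-spleen differences by 1.94. The latter was called on its brightest probe set alone. The direct comparisons of infiltrates lie within 1 strain, and both sides are tumors. In them the tumor line differs, and for C26-GM it cannot be told apart from sex. In the strain contrasts organ, tumor line, strain and, for C26-GM, sex cannot be told apart. Single arrays were not searched for outlying values, since every group holds 3 arrays.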

How the results depend on the processing

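Under other settings, 925 repeats of the 75 changes of single genes kept their side of the threshold, of which 24, not called either way, changed sign; 14 lost and 5 gained a call, and 1 changed sign with a call: Lepr in the GM-CSF + G-CSF culture against fresh marrow was -1.15 with the mean of all probe sets and 0.44 with the brightest. With that mean the number of members called was 0 in place of 2 for C26-GM spleen against BALB/c spleen, 1 in place of 2 for C26-GM infiltrate against C26-GM spleen, and 0 in place of 1 for EL-4 infiltrate against C57BL/6 spleen, for EL-4 against MCA203 infiltrate and for C57BL/6 against BALB/c spleen. For EL-4 infiltrate against C57BL/6 spleen the number was also 0 with housekeeping centring, with array weights and at an adjusted p under 0.01, and for MCA203 infiltrate 0 at an adjusted p under 0.01. The mean averages probe sets that differ, and otherwise the cause was not tested. Leaving out 1 array in turn gave 0 to 1 members called for C57BL/6 against BALB/c spleen, for EL-4 and MCA203 infiltrates against C57BL/6 spleen and for EL-4 against MCA203 infiltrate, and kept the side of the threshold in 493 of 510 gene results, 13 of them uncalled with a changed sign, with 17 calls lost. With the replicate number as a block 75 of 75 gene results kept their call. Housekeeping centring moved the share of all calls that were higher to 32.6% for 4T1 infiltrate against BALB/c spleen (55.7% as deposited), 37.9% for 4T1 against C26-GM infiltrate (69.7%), 27.4% for C26-GM spleen against BALB/c spleen (37.7%), 56.3% for C26-GM infiltrate against C26-GM spleen (45.4%), 26.1% for EL-4 (59.3%) and 21.2% for MCA203 infiltrate (48.0%) against C57BL/6 spleen, 82.9% between the cultures (69.7%) and 35.7% for the strain contrast (57.3%); it moved the median of all genes by up to -0.41. Quantile normalization again moved it to 50.1% for the IL-6 (35.5%) and 46.5% for the G-CSF culture (32.4%) against fresh marrow. The settings on narrow culture arrays and on single probe sets were added after seeing the data. Without detection calls, levels near the bottom of the scale, such as Adipoq outside marrow, have no stated distance from background.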
